A study of Mus musculus with 6 samples.

Results

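The genes described here are 48 genes of mitosis, the stage of the cell cycle at which duplicated chromosomes are attached to a spindle, separated and parcelled into daughter cells. They were taken by gene symbol from the 15898 genes of the deposited count table, all 48 symbols were found, and all 48 passed the filter on low counts that left 15477 genes for testing. They cover 8 roles: the cyclin-dependent kinase with its cyclins and entry kinases, the chromosomal passenger complex, the spindle checkpoint, anaphase onset, the kinetochore and centromere, condensin and chromosome structure, spindle motors and assembly, and cytokinesis. The RNA came from T cells sorted out of B16F10 melanomas, 500 cells per library, in 4 IL-10/Fc and 2 PBS libraries amplified with Smart-Seq2.

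The IL-10/Fc group had received 4 injections beside the tumour of 20 µg of IL-10/Fc, interleukin-10 joined to an antibody Fc part, and the PBS group injections of buffer. The other conditions given in the labels were the same in both groups. The hosts were C57BL/6 mice irradiated with 4 Gy, which had been given naive Thy1.1+ PMEL T cells before the tumour and activated Thy1.2+ PMEL CD8+ T cells on day 10. PMEL cells carry a transgenic T cell receptor (the transgene Tg(TcraTcrb)8Rest on B6.Cg-Thy1a/Cy mice) that recognises a melanocyte antigen, so they stand for 1 receptor and not for the varied T cells of a host. The sorted cells were Thy1.1+ CD8+ cells bearing PD-1 and TIM-3 from tumours of day 18, which the labels call terminally exhausted. Whether each library stands for a separate mouse is not stated in the labels. The p-values therefore reflect how far these samples spread, and that spread may be technical.

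Mitotic genes are transcribed in a wave that builds through G2 and ends as cells divide. The wave is driven by the MuvB, B-MYB and FOXM1 proteins at promoters that carry a cell cycle genes homology region (CHR) together with CCAAT boxes bound by NF-Y. In resting cells the DREAM complex holds the same promoters silent, which is why these transcripts are widely read as a sign of dividing cells. Terminally exhausted T cells are described as having a limited capacity to proliferate while remaining able to kill.

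Promoter windows are shown first because they carry a feature that most members share outside the count table. RefSeq's GRCm38.p6 table held 43 windows, each from 250 bases before to 50 bases after a start site, for 40 of the 48 genes. The CHR was searched as TTTGAA and the NF-Y box as CCAAT, each on both strands (TTCAAA and ATTGG on the other), and no match of 1 overlaps a match of the other in the windows printed. The CHR letters occurred in 34 of the 43 windows (79.1%), against 17.9% of all 32851 windows in the table. CCAAT occurred in 34 windows (79.1%), against 37.4% of all windows, and 2 or more copies in 23 (53.5%), against 11.7%. Both motifs stood together in 31 windows (72.1%), against 6.95% of all windows. Of the 43 CHR matches, 31 began within 50 bases of the start site. A match is a description of the letters and not a bound site.

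Below are 7 windows, chosen as central mitotic kinases and activators (Cdk1, Plk1, Cdc20), as genes whose libraries did not overlap between the groups (Cenpa, Ttk, Ndc80), and as a gene whose IL-10/Fc mean lay above the PBS mean (Top2a). They lie at Cdk1 chr10:69352863-69353162 (minus strand), Plk1 chr7:122159185-122159484 (plus strand), Cdc20 chr4:118437294-118437593 (minus strand), Cenpa chr5:30666636-30666935 (plus strand), Ttk chr9:83834439-83834738 (plus strand), Ndc80 chr17:71526808-71527107 (minus strand) and Top2a chr11:99024140-99024439 (minus strand). Capitals mark the CHR and CCAAT letters on either strand.
Cdk1: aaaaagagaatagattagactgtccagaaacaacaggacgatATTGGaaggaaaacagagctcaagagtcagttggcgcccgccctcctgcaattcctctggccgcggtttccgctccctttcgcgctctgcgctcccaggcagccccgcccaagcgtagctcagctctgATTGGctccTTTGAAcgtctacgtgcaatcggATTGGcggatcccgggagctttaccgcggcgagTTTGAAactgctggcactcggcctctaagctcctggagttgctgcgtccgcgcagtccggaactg
Plk1: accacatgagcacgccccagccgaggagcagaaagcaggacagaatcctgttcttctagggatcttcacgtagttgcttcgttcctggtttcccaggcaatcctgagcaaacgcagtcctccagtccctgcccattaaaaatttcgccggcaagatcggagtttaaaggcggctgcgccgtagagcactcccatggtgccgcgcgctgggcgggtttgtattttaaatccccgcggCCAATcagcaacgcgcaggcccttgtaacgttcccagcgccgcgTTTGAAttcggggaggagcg
Cdc20: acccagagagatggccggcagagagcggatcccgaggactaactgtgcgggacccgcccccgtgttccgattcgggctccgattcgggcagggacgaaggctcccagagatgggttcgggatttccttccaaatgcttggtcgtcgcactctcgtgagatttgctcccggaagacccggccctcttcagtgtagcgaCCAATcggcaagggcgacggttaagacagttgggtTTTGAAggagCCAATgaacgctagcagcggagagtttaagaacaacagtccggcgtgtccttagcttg
Cenpa: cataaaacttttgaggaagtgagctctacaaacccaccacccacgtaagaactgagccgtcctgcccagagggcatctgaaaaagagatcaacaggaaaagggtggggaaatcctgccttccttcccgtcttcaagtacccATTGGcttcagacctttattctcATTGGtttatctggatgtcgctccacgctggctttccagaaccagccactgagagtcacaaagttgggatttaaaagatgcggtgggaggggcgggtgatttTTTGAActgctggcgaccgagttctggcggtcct
Ttk: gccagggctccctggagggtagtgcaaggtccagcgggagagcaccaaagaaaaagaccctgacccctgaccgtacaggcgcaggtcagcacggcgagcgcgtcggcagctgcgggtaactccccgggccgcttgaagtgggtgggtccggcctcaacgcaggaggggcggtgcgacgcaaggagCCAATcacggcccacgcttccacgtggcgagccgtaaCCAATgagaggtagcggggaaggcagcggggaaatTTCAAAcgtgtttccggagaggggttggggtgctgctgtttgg
Ndc80: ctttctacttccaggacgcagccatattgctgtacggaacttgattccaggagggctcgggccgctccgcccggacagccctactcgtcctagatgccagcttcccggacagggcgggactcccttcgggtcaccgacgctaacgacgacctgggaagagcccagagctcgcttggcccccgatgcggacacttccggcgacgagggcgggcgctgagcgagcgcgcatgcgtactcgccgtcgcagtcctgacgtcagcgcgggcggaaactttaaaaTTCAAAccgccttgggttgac
Top2a: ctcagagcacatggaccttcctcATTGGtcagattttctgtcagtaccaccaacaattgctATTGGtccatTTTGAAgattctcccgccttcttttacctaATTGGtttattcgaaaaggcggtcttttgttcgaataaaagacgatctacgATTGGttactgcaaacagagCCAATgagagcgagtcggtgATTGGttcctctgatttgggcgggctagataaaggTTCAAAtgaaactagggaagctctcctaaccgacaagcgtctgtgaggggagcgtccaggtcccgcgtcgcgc
Cdk1 and Top2a carry 2 CHR matches each, and Ndc80 is the only one of these 7 with no CCAAT. Top2a has 6 CCAAT copies, the most of the 7. Over the 40 genes with a window, the 31 with a CHR centred on a log2 fold change (IL-10/Fc over PBS) of -0.26 (median), and 21 lay below 0. The 9 without had a median of -0.52, and 7 lay below 0. No match says only that the letters are not in that window.

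**Figure D1:**
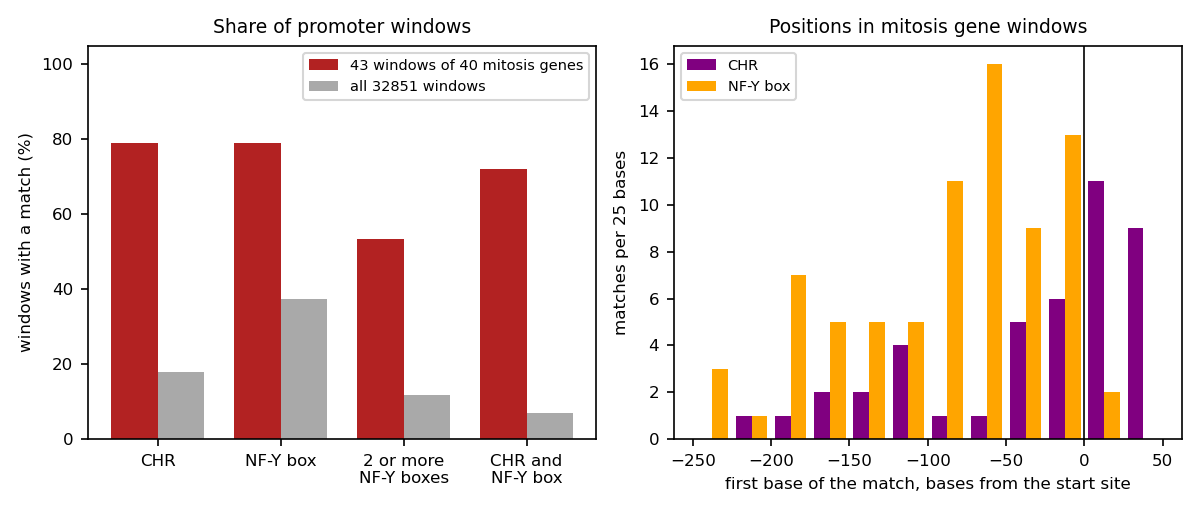
Left, share of promoter windows (percent) with each motif, for 43 windows of 40 mitosis genes (red) and all 32851 windows (grey). Right, number of matches per 25 bases against the position of the first base of the match relative to the start site (0). The CHR was found in 79.1% of the mitosis gene windows and 17.9% of all windows.

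Counts over the listed genes were 28235203 to 36941814 per library in IL-10/Fc and 26738871 and 28774401 in PBS. The 12 listed genes that mark CD8+ T cells and exhaustion had counts in every library. They summed to 23700 to 27000 CPM (each count relative to its library's total after TMM scaling) in IL-10/Fc and to 15600 and 21700 CPM in PBS. The largest part was Trbv14, at 10300 to 12000 CPM in IL-10/Fc and 8480 and 10500 CPM in PBS. Cd8a had 2900 to 3160 CPM in IL-10/Fc and 910 and 2290 CPM in PBS. Pdcd1, for PD-1, went the other way, at 700, 1110, 994 and 867 CPM in IL-10/Fc and 1580 and 1290 CPM in PBS. Havcr2, for TIM-3, overlapped, at 161 to 312 CPM in IL-10/Fc and 200 and 189 CPM in PBS. Of the 12, 10 had a log2 fold change above 0 and 2 (Pdcd1 and Tox) below. For 7 every IL-10/Fc library lay above both PBS libraries, and for 1 (Pdcd1) below. Over all genes these held for 12.1% and 11.5%. The exhaustion gene Tox was uneven, at 20.1 to 181 CPM in IL-10/Fc and 33.1 and 481 CPM in PBS. Across all 15477 genes, the quasi-likelihood test of edgeR, adjusted after Benjamini and Hochberg, called 1 gene higher in IL-10/Fc (0.00646%) and 0 genes lower (0%), and at an unadjusted p under 0.05 it had 1115 higher (7.2%) and 855 lower (5.52%).

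No mitosis gene passed the test. The smallest adjusted p among the 48 was 0.297, and the authors' deposited table likewise held no member with an adjusted p under 0.05, where it called 3.57% of all listed genes higher and 1.72% lower. The estimates leaned to lower values in IL-10/Fc: 36 of 48 had a log2 fold change below 0 (75%), against 50.7% of all genes tested. The median log2 fold change of the members was -0.38, with quartiles of -0.59 and -0.01, and that of all genes was -0.01, with quartiles of -0.36 and 0.38. Over the 6397 protein-coding genes with a mean of at least 10 CPM it was -0.02, and in that set 8.54% had an unadjusted p under 0.05 on the lower side and 13.6% had every IL-10/Fc library below both PBS libraries. At an unadjusted p under 0.05 there were 6 members lower (12.5%, against 5.52% of all genes) and 1 higher (2.08%, against 7.2%). For 11 members every IL-10/Fc library lay below both PBS libraries (22.9%, where this held for 11.5% of all genes), and for 0 members did every IL-10/Fc library lie above both (where this held for 12.1%). With scaling by library size alone, 14 members had every IL-10/Fc library below both PBS libraries (29.2%, where this held for 19.8% of all genes), adding Bub1b, Racgap1 and Prc1. In the authors' deposited table, 7 members had an unadjusted p under 0.05 on the lower side (14.6%, against 6.81% of all listed genes). Scaling by library size in place of TMM lowered the log2 fold changes of all genes by a median of 0.17, and with it the members' median was -0.55.

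The libraries of each group differed among themselves. The 48 genes together took 0.193%, 0.238%, 0.371% and 0.290% of counts in IL-10/Fc replicates 1 to 4, and 0.408% and 0.320% in PBS replicates 1 and 2. Their summed level was 2019, 2491, 3771 and 3055 CPM in IL-10/Fc and 3708 and 3006 CPM in PBS. IL-10/Fc replicates 1 and 2 lay below both PBS libraries on either measure. Replicate 4 lay below both by share of counts and inside the PBS range by summed CPM, and replicate 3 lay inside the range by share and above it by summed CPM. Among the 4 IL-10/Fc libraries, replicate 1 was the lowest for 32 of the 48 genes and replicate 3 the highest for 36. Replicate 1 stood below both PBS libraries for 42 genes, replicate 2 for 36, replicate 4 for 24 and replicate 3 for 13. PBS replicate 1 exceeded PBS replicate 2 for 38 of the 48. The ratio of the highest to the lowest IL-10/Fc library had a median of 2.22 over the 47 members with counts in every library, and it was 2 or more for 30 of them.

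Leaving out single libraries moved the members' median log2 fold change between -0.14 (without PBS replicate 1) and -0.50 (without IL-10/Fc replicate 3), with -0.25 without IL-10/Fc replicate 1. The members at an unadjusted p under 0.05 on the lower side numbered 0 without PBS replicate 1 (0%, against 3.74% of all genes in the same fit) and 3 without IL-10/Fc replicate 1 (6.25%, against 4.8%). There were 4 without IL-10/Fc replicate 2 (8.33%, against 5.22%), 4 without PBS replicate 2 (8.33%, against 5.6%) and 12 without IL-10/Fc replicate 3 (25%, against 5.13%). Of the 47 members with an estimate other than 0.00, 37 moved by over 1.5 times or changed sign when some single library was left out. In RNA from sorted cells, fewer dividing cells and less transcript in each dividing cell cannot be told apart.

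**Figure D2:**
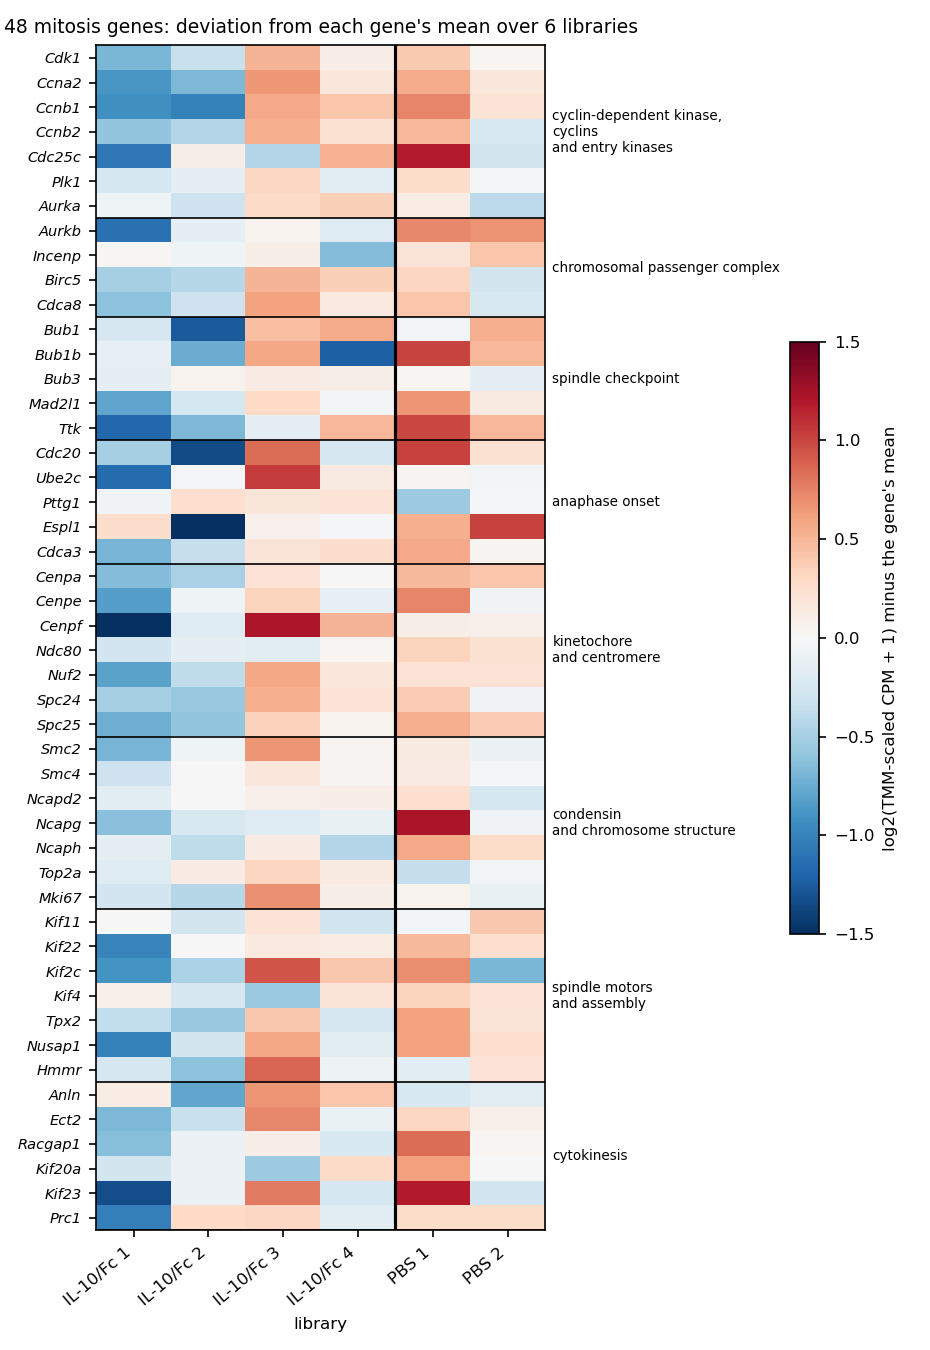
Each row is a mitosis gene, each column a library, with IL-10/Fc left of the black line and PBS right of it; colour is log2(CPM + 1) minus the gene's mean over the 6 libraries, on a scale limited to 1.5 in either direction. IL-10/Fc replicate 1 is the lowest of its group for 32 of 48 genes and IL-10/Fc replicate 3 the highest for 36.

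Markers of other cell types differed between the same libraries. The labels give the sort a purity above 99%. The 15 macrophage and monocyte markers, all listed, summed to 392, 869, 1500 and 1360 CPM in IL-10/Fc replicates 1 to 4 and to 583 and 753 CPM in PBS. Of these, Mrc1 was at 0 in both PBS libraries and Itgam at 0 in PBS replicate 2, and the rest had counts in every library. The 5 listed of 8 dendritic cell and MHC class II markers summed to 110, 582, 1880 and 983 CPM in IL-10/Fc and to 163 and 277 CPM in PBS. The 6 listed of 8 natural killer cell markers summed to 119, 218, 532 and 437 CPM in IL-10/Fc and to 113 and 77.8 CPM in PBS. Most of that sum in IL-10/Fc was Fcer1g (84.6, 155, 375 and 296 CPM), which myeloid cells also express, as they do Tyrobp. Klrb1c, a defining marker of natural killer cells, had at most 0.72 CPM in IL-10/Fc and 10.1 and 0.0654 CPM in PBS, and Eomes had at most 21.3 CPM in IL-10/Fc and 46.7 and 5.1 CPM in PBS. Klra8 had 4.22, 0.732, 1.62 and 4.70 CPM in IL-10/Fc and 0.272 and 0.327 CPM in PBS, without overlap. Klra9 had 2.95, 6.56, 13.3 and 19 CPM in IL-10/Fc and 3.02 and 1.54 CPM in PBS. Of the 6 listed, 4 had a log2 fold change above 0 and 2 below. From the lowest to the highest, the IL-10/Fc libraries ran replicate 1, 2, 4 and 3 in each of these sums, the same order as in the summed mitosis genes. Both PBS libraries lay below IL-10/Fc replicates 2, 3 and 4 in all 3 sums, but single genes differed. The largest macrophage marker was Ctss, at 226, 477, 826 and 597 CPM in IL-10/Fc and 293 and 320 CPM in PBS. Of the 15, 13 had a log2 fold change above 0 and 2 below. Those 2 were Lyz2 (-0.35), highest in PBS replicate 2 at 301 CPM, and Apoe (-1.35), highest in PBS replicate 1 at 108 CPM. Of the 5 dendritic cell and MHC class II markers, 4 lay above 0 and Xcr1 (-0.16) below. The 4 listed of 7 melanoma markers summed to 4.76 to 9.04 CPM in IL-10/Fc and to 0.645 and 6.34 CPM in PBS, with Mlana at 0 in PBS replicate 1. The 2 listed of 6 B cell markers summed to 3.92 to 15.5 CPM in IL-10/Fc and to 42.5 and 42.8 CPM in PBS, but went opposite ways. Ighm had 1.85 to 12.4 CPM in IL-10/Fc and 42.5 and 42.1 CPM in PBS. Cd79b had 1.74 to 6.56 CPM in IL-10/Fc and 0 and 0.719 CPM in PBS. Neutrophil markers (3 of 5 listed) reached at most 6.73 CPM, fibroblast and endothelial markers (2 of 6) at most 20.4 CPM, and 0 of 5 red blood cell markers were listed. The part of these cells in the mitosis values was not tested.

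**Figure D3:**
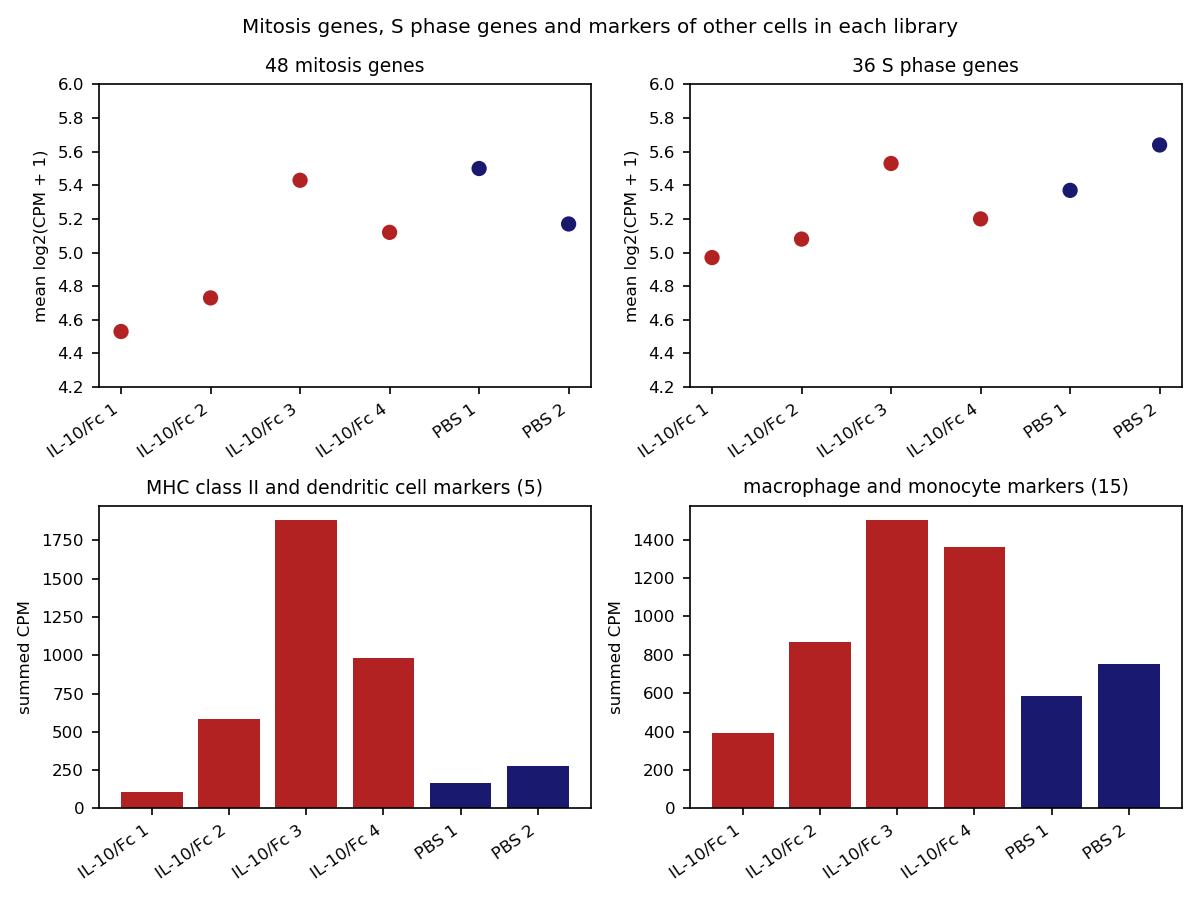
One value per library, IL-10/Fc in red and PBS in dark blue. Top, mean log2(CPM + 1) of 48 mitosis genes and of 36 S phase genes; bottom, summed CPM of the listed markers of dendritic cells with MHC class II and of macrophages and monocytes. IL-10/Fc replicate 3 is the highest IL-10/Fc library in all 4 panels and replicate 1 the lowest.

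Entry into mitosis is set off by CDK1 bound to cyclin B, which the phosphatase CDC25C activates. The kinase gene Cdk1 had 52.0, 66.6, 120 and 90.2 CPM in IL-10/Fc and 111 and 85.8 CPM in PBS. Ccnb1, which encodes cyclin B1, had 21.1, 19.7, 61.1 and 54.9 CPM in IL-10/Fc and 68.3 and 47.2 CPM in PBS. In both genes IL-10/Fc replicates 1 and 2 lay below the PBS libraries while replicates 3 and 4 overlapped them, and the log2 fold changes were -0.26 (SE 0.33) and -0.56 (SE 0.53). Ccna2, for the cyclin A2 that acts from S phase to early mitosis, averaged 62.2 ± 31.1 CPM in IL-10/Fc (SD, n = 4) and 84.1 ± 15.9 CPM in PBS (SD, n = 2). Ccnb2, for cyclin B2, averaged 189 ± 71.4 CPM in IL-10/Fc (SD, n = 4) and 213 ± 75.5 CPM in PBS (SD, n = 2). Cdc25c was low, at 2.08, 5.89, 3.75 and 8.29 CPM in IL-10/Fc and 13.6 and 4.35 CPM in PBS, with PBS replicate 1 apart from the other 5 libraries.

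The polo-like kinase gene Plk1, whose product acts from mitotic entry to cytokinesis, had 4.39, 4.85, 7.02 and 4.76 CPM in IL-10/Fc and 6.83 and 5.33 CPM in PBS. Aurka, for the Aurora kinase of spindle poles, had 16.6, 13.8, 21.4 and 22.5 CPM in IL-10/Fc and 18.9 and 13.0 CPM in PBS. Groups overlapped for all 7 genes of this role, 6 of which had a log2 fold change below 0, with a median of -0.26.

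The chromosomal passenger complex corrects faulty attachments at the centromere and later marks the division plane, and its 4 subunit genes gave unlike estimates. Aurkb (chromosome 11, 69045647 to 69051664 in GRCm38), its kinase, had 18.1, 36.5, 42.0 and 35.3 CPM in IL-10/Fc and 67.5 and 64.9 CPM in PBS. No library of 1 group reached those of the other, and the log2 fold change was -1.01 (SE 0.32, 95% interval -1.77 to -0.24; edgeR adjusted p = 0.297). Without single libraries the estimate for Aurkb stayed between -0.80 and -1.14. In the authors' deposited table the adjusted p of Aurkb was 0.054, the smallest of the 48. Incenp, the scaffold of the complex, had 15.2, 14.3, 16 and 9.23 CPM in IL-10/Fc and 17.3 and 20.4 CPM in PBS, also without overlap. Birc5, for the subunit survivin, averaged 173 ± 61.3 CPM in IL-10/Fc (SD, n = 4) and 172 ± 50.7 CPM in PBS (SD, n = 2). Cdca8, for borealin, averaged 87.1 ± 32.6 CPM in IL-10/Fc (SD, n = 4) and 93.1 ± 29.1 CPM in PBS (SD, n = 2). The last pair had 95% intervals of -0.86 to 0.86 and of -0.98 to 0.79 on the log2 scale, which hold decreases as well as increases.

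The spindle checkpoint halts anaphase until every kinetochore is attached. Ttk, for the kinase MPS1 that starts the signal, had 3.15, 4.88, 7.49 and 12.2 CPM in IL-10/Fc and 17.8 and 12.2 CPM in PBS. IL-10/Fc replicate 4 and PBS replicate 2 came to the same rounded value, so the groups were apart by a margin below rounding. Mad2l1, for the checkpoint effector MAD2, had 66.5, 96.4, 142 and 112 CPM in IL-10/Fc and 184 and 127 CPM in PBS, with replicate 3 of IL-10/Fc inside the PBS range. The log2 fold changes were -1.11 (SE 0.53) for Ttk and -0.58 (SE 0.30) for Mad2l1, and the estimate for Mad2l1 was -0.29 without PBS replicate 1. Bub1b, for the checkpoint protein BUBR1, averaged 5.88 ± 3.77 CPM in IL-10/Fc (SD, n = 4) and 12.8 ± 3.46 CPM in PBS (SD, n = 2), and the kinase gene Bub1 averaged 8.71 ± 4.64 CPM in IL-10/Fc (SD, n = 4) and 10.5 ± 3.24 CPM in PBS (SD, n = 2). Bub3, whose product also serves outside mitosis, was among the steadiest members, at 271 ± 22.2 CPM in IL-10/Fc (SD, n = 4) and 255 ± 21.5 CPM in PBS (SD, n = 2). Its log2 fold change was 0.09 with a 95% interval of -0.19 to 0.36, and -0.09 with scaling by library size.

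Anaphase starts when the anaphase-promoting complex, switched on by CDC20, marks securin and cyclin B for destruction and so frees separase. Cdc20 had 10.2, 5.27, 27.3 and 12.3 CPM in IL-10/Fc and 31.3 and 17.5 CPM in PBS, and its highest IL-10/Fc library was 5.18 times its lowest. Pttg1 (chromosome 11, 43420250 to 43426251), which encodes securin, had 231, 287, 274 and 277 CPM in IL-10/Fc and 164 and 235 CPM in PBS. It was the 1 member with an unadjusted p under 0.05 on the higher side, with a log2 fold change of 0.42 (SE 0.17; edgeR adjusted p = 0.390), and IL-10/Fc replicate 1 lay just below PBS replicate 2. The estimate ran from 0.19 to 0.70 without single libraries, and the unadjusted p was above 0.05 with scaling by library size and without IL-10/Fc replicate 2, 3 or 4 or PBS replicate 1. Cdca3, whose product triggers destruction of the mitotic brake WEE1, had 26.3, 33.8, 49.7 and 52.1 CPM in IL-10/Fc and 64.6 and 44.6 CPM in PBS. Ube2c, the ubiquitin-conjugating enzyme of the complex, averaged 122 ± 72.4 CPM in IL-10/Fc (SD, n = 4) and 106 ± 4.11 CPM in PBS (SD, n = 2). Espl1, for separase, was among the lowest members, with 3.35, 0, 2.81 and 2.59 CPM in IL-10/Fc and 4.25 and 6.40 CPM in PBS. The IL-10/Fc library at 0 allows up to 0.100 CPM by a count of 3, for counting error only.

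Kinetochores join chromosomes to microtubules. For 3 of the 7 genes of this role every IL-10/Fc library lay below both PBS libraries (42.9%, where this held for 11.5% of all genes). Ndc80 (chromosome 17, 71496100 to 71526857), for the microtubule-binding subunit of the complex named after it, had 44.6, 49.2, 49.0 and 55.6 CPM in IL-10/Fc and 69 and 64.1 CPM in PBS. Its libraries were tight in both groups, and the log2 fold change of -0.42 (SE 0.13, 95% interval -0.75 to -0.10; edgeR adjusted p = 0.297) stayed between -0.37 and -0.48 when single libraries were left out. Cenpa (chromosome 5, 30666777 to 30674830), for the histone H3 variant that marks centromeres, had 171, 192, 313 and 271 CPM in IL-10/Fc and 377 and 360 CPM in PBS, a log2 fold change of -0.64 (SE 0.25; edgeR adjusted p = 0.385).

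The other subunits of the NDC80 complex differed among themselves. Spc25 had 44.2, 49.1, 94.4 and 77.2 CPM in IL-10/Fc and 109 and 97.5 CPM in PBS, without overlap. Nuf2 averaged 22.2 ± 9.54 CPM in IL-10/Fc (SD, n = 4) and 26.1 ± 0.0135 CPM in PBS (SD, n = 2), and Spc24 averaged 55.8 ± 21.4 CPM in IL-10/Fc (SD, n = 4) and 63.4 ± 13.8 CPM in PBS (SD, n = 2). Both overlapped, although the 4 proteins form a single assembly. The kinetochore motor gene Cenpe averaged 27.8 ± 8.85 CPM in IL-10/Fc (SD, n = 4) and 39.9 ± 15.2 CPM in PBS (SD, n = 2). Cenpf, for a large kinetochore and nuclear matrix protein, had the largest ratio of highest to lowest IL-10/Fc library, 9.07, among the 47 members with counts in every library, with 4.09, 13.4, 37.1 and 22.5 CPM in IL-10/Fc and 16.5 and 16.3 CPM in PBS.

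Condensin folds chromosomes before division, and its subunit genes split. Ncapg (chromosome 5, 45669919 to 45700546), for a HEAT-repeat subunit of condensin I, had 23.9, 31.3, 32.4 and 34.5 CPM in IL-10/Fc and 88.8 and 35.9 CPM in PBS. The log2 fold change of -1.03 (SE 0.35; edgeR adjusted p = 0.330) was -0.24 without PBS replicate 1 and -1.54 without PBS replicate 2. Ncaph (chromosome 2, 127103809 to 127133954), for the kleisin subunit of condensin I, had 43.6, 36.8, 52.9 and 35.3 CPM in IL-10/Fc and 72.1 and 58.8 CPM in PBS, a log2 fold change of -0.64 (SE 0.20; edgeR adjusted p = 0.305). The core ATPase genes Smc2 and Smc4 serve both condensins. Smc2 averaged 87.1 ± 33.7 CPM in IL-10/Fc (SD, n = 4) and 84.6 ± 9.53 CPM in PBS (SD, n = 2). Smc4 averaged 156 ± 21.0 CPM in IL-10/Fc (SD, n = 4) and 163 ± 13.0 CPM in PBS (SD, n = 2). Ncapd2 averaged 10.3 ± 0.896 CPM in IL-10/Fc (SD, n = 4) and 10.4 ± 2.85 CPM in PBS (SD, n = 2).

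The widely used proliferation marker Mki67, whose protein coats mitotic chromosomes, had 38.1, 34.5, 75.6 and 49.8 CPM in IL-10/Fc and 48.4 and 43.2 CPM in PBS. IL-10/Fc replicates 3 and 4 lay above both PBS libraries and replicates 1 and 2 below them. Its log2 fold change was 0.11 with a 95% interval of -0.69 to 0.92, and it was -0.06 with scaling by library size and -0.16 without IL-10/Fc replicate 3. Top2a, for the topoisomerase that untangles sister chromosomes, had 62.2, 77.8, 89.0 and 78.3 CPM in IL-10/Fc and 55.4 and 69.3 CPM in PBS, a log2 fold change of 0.30 (SE 0.18; edgeR adjusted p = 0.550) that kept its sign in the 12 other settings tried. Both intervals include 0.

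Spindle motors and assembly factors lay lower by estimate in 5 of 7 genes. Tpx2, which activates Aurora A on the spindle, had 29.2, 25.3, 50.9 and 31.8 CPM in IL-10/Fc and 58.4 and 43.8 CPM in PBS. Kif22, for a kinesin that pushes chromosome arms, had 13.7, 28.2, 31.3 and 30.4 CPM in IL-10/Fc and 39.7 and 33.7 CPM in PBS, without overlap. Kif4, a chromosome-bound kinesin, also had no overlap, at 8.00 ± 2.04 CPM in IL-10/Fc (SD, n = 4) and 10.8 ± 0.625 CPM in PBS (SD, n = 2). The bipolar spindle motor gene Kif11 averaged 14.6 ± 2.61 CPM in IL-10/Fc (SD, n = 4) and 17.8 ± 4.15 CPM in PBS (SD, n = 2). Nusap1, for a microtubule bundler, averaged 93.4 ± 42.5 CPM in IL-10/Fc (SD, n = 4) and 137 ± 23.3 CPM in PBS (SD, n = 2). The microtubule depolymerase gene Kif2c and the spindle protein gene Hmmr had log2 fold changes of 0.01 (SE 0.71) and 0.06 (SE 0.46), which turned to -0.17 and -0.10 with scaling by library size.

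Cytokinesis genes build the central spindle and the contractile ring. Racgap1 (chromosome 15, 99620496 to 99651656), a subunit of centralspindlin, had 59.4, 87.4, 99.0 and 78.2 CPM in IL-10/Fc and 166 and 94.7 CPM in PBS, a log2 fold change of -0.69 (SE 0.28; edgeR adjusted p = 0.389) that was -0.23 without PBS replicate 1 and -1.04 without PBS replicate 2. Its partner motor gene Kif23 averaged 22.8 ± 13.4 CPM in IL-10/Fc (SD, n = 4) and 36.9 ± 25.2 CPM in PBS (SD, n = 2), with an estimate of -0.70 that turned to 0.26 without PBS replicate 1. Kif20a, for a motor of the central spindle, had 9.99, 11.5, 8.14 and 15.2 CPM in IL-10/Fc and 19.4 and 12.3 CPM in PBS. Prc1, which bundles the microtubules of the central spindle, averaged 24.4 ± 9.33 CPM in IL-10/Fc (SD, n = 4) and 30.9 ± 0.0242 CPM in PBS (SD, n = 2). Ect2, the activator of RhoA at the division plane, had a log2 fold change of -0.22 (SE 0.44). Anln, for the ring scaffold anillin, was the lowest member per length and had a log2 fold change of 0.58 (SE 0.67). All 6 genes of this role overlapped between the groups.

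**Figure D4:**
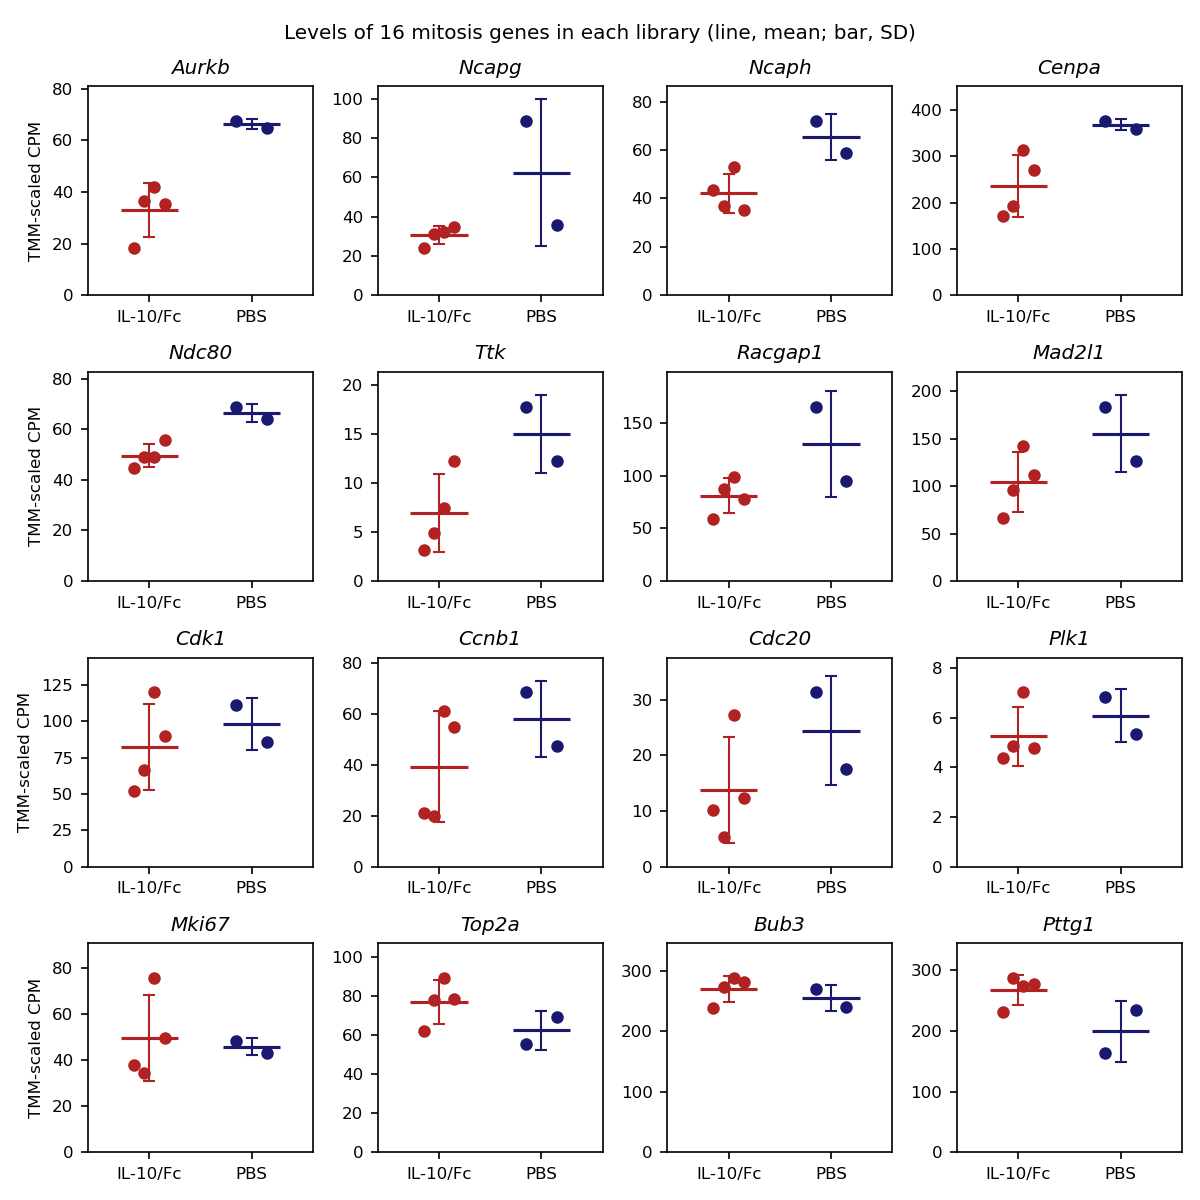
TMM-scaled CPM of 16 mitosis genes in each of 4 IL-10/Fc (red) and 2 PBS libraries (dark blue), with the mean as a line and the SD as a bar; each axis starts at 0. Aurkb, Ncapg, Ncaph, Cenpa, Ndc80 and Ttk have no overlap between the groups, and the other 10 genes overlap.

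The 11 members without overlap were Aurkb, Incenp, Ttk, Espl1, Cenpa, Ndc80, Spc25, Ncapg, Ncaph, Kif22 and Kif4. Leaving out Espl1, which had a library at 0, their highest IL-10/Fc library was a median of 1.82 times the lowest. In the other members it was 2.31 times. Choosing genes without overlap favours a narrow IL-10/Fc range, so this contrast is not read as a result about these genes. The edgeR intervals set the limits of what 4 against 2 libraries can show: for 35 members the 95% interval reached below a log2 fold change of -1, and for 12 members it lay wholly between -1 and 1. An adjusted p above 0.05 therefore does not show that a gene was at the same level in both groups.

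**Figure D5:**
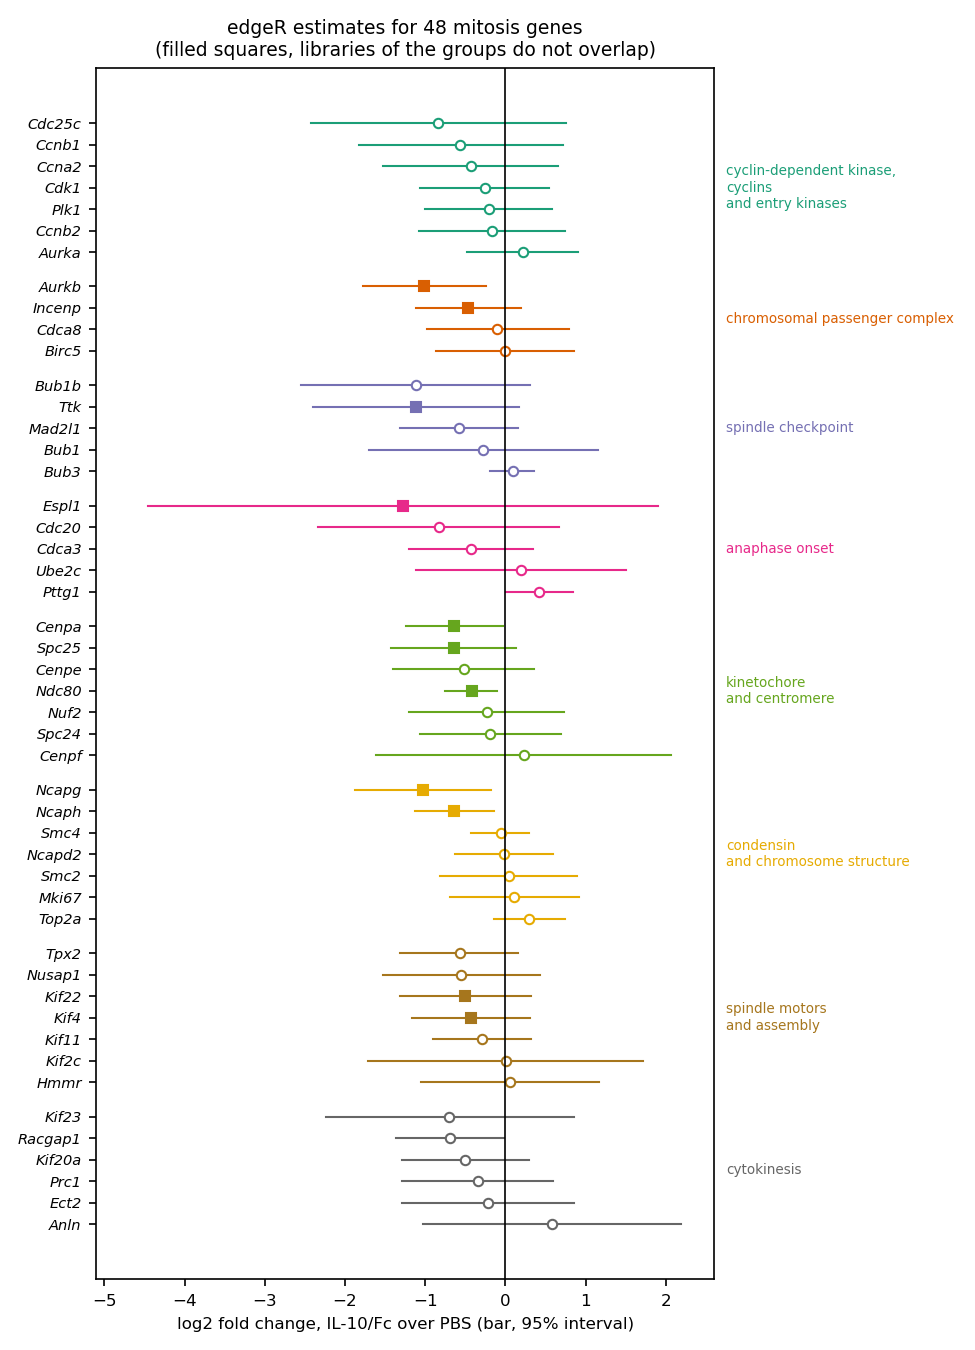
Log2 fold change of IL-10/Fc over PBS (x axis) for the 48 mitosis genes by role, with 95% intervals from edgeR's quasi-likelihood fit; filled squares mark genes whose libraries do not overlap between groups. Estimates lie below 0 for 36 of 48 genes, and 7 intervals leave out 0 before adjustment.

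Per kilobase of annotated exon, the members ranged from 129 CPM per kb for Ccnb2, averaged over the 6 libraries, down to 0.264 CPM per kb for Anln. Pttg1 (122 CPM per kb), Birc5 (50.9), Cenpa (48), Ube2c (45.0) and Bub3 (38) followed Ccnb2 on this scale, and Espl1 (0.369), Cenpf (1.19) and Cdc25c (1.28) stood just above Anln. Mki67 (4.80) and Top2a (7.99) ranked in the middle on the same scale. The 24 members with the shorter exon length (1.53 to 4.92 kb) centred on a log2 fold change of -0.48 (median), with 19 below 0, and the 24 with the longer (4.93 to 15.43 kb) had -0.24 with 17 below 0. Exons of 14 members overlap those of another gene, and in 7 the overlap exceeds 10% of exon bases, from 11.1% of Prc1 with Rccd1 to 29.3% of Kif20a with Cdc23. The library type does not mark strand, so reads of those overlaps cannot be assigned.

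Genes of mitosis outside the 48 were examined in 6 further lists, 121 genes of which 116 were tested. Of these, 84 lay below 0 and 32 above, with a median log2 fold change of -0.26, and 0 passed after adjustment (at an unadjusted p under 0.05, 9 were lower, 7.76% against 5.52% of all genes, and 5 higher, 4.31% against 7.2%). Hjurp, the chaperone that loads the centromeric histone encoded by Cenpa, had 19.5, 17.3, 33.7 and 20.8 CPM in IL-10/Fc and 61.4 and 61.4 CPM in PBS, a log2 fold change of -1.43 (SE 0.28; edgeR adjusted p = 0.188). Groups did not overlap, and the value stayed between -1.32 and -1.67 without single libraries, while DESeq2's Wald test gave an adjusted p of 0.000478. Cenpl, of the constitutive centromere network, lay higher, at 57.0 ± 6.40 CPM in IL-10/Fc (SD, n = 4) and 38.2 ± 0.647 CPM in PBS (SD, n = 2).

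Among other checkpoint genes, 7 tested, the median was -0.25. Kntc1, a subunit of the complex that brings dynein to kinetochores, averaged 5.99 ± 2.65 CPM in IL-10/Fc (SD, n = 4) and 1.42 ± 0.903 CPM in PBS (SD, n = 2), and its partner gene Zw10 averaged 18.5 ± 7.70 CPM in IL-10/Fc (SD, n = 4) and 26.1 ± 4.63 CPM in PBS (SD, n = 2). The list of the anaphase-promoting complex had 9 of 17 genes above 0 and a median of 0.07. It holds 14 subunits, 8 of them above 0, and 3 genes that act on the complex, the coactivator Fzr1, the inhibitor Fbxo5 and the ubiquitin-conjugating enzyme Ube2s. The scaffold gene Anapc5 averaged 150 ± 20.5 CPM in IL-10/Fc (SD, n = 4) and 228 ± 62.1 CPM in PBS (SD, n = 2), and Anapc13 averaged 80.1 ± 8.42 CPM in IL-10/Fc (SD, n = 4) and 58.0 ± 10.3 CPM in PBS (SD, n = 2). Cohesin and the other condensin genes had a median of 0.00 over 15 genes. Ncaph2, the kleisin of condensin II, had 68.3, 64.4, 76.1 and 62.4 CPM in IL-10/Fc and 121 and 92.1 CPM in PBS, and the cohesin subunit gene Stag1 averaged 25.6 ± 5.95 CPM in IL-10/Fc (SD, n = 4) and 14.7 ± 3.25 CPM in PBS (SD, n = 2).

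Other spindle and cytokinesis genes had the lowest median of these lists, -0.63 over 34 genes, with 29 below 0 (85.3%, against 50.7% of all genes). In 12 of them every IL-10/Fc library lay below both PBS libraries (35.3%, against 11.5%). The kinesin gene Kif20b averaged 16.9 ± 2.69 CPM in IL-10/Fc (SD, n = 4) and 26.4 ± 0.619 CPM in PBS (SD, n = 2), and the citron kinase gene Cit averaged 3.4 ± 0.744 CPM in IL-10/Fc (SD, n = 4) and 6.59 ± 1.78 CPM in PBS (SD, n = 2). Other mitotic kinases and entry regulators had a median of -0.17 over 17 genes. Among them the centriole kinase gene Plk4 averaged 29.5 ± 4.56 CPM in IL-10/Fc (SD, n = 4) and 41.3 ± 0.873 CPM in PBS (SD, n = 2), and Ensa, whose product restrains a phosphatase during mitosis, averaged 13.7 ± 3.70 CPM in IL-10/Fc (SD, n = 4) and 20.5 ± 0.733 CPM in PBS (SD, n = 2).

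The 22 regulators of mitotic genes had a median of -0.12, with 16 below 0. Foxm1, the activator of G2 genes, had 2.51, 2.65, 4.14 and 1.80 CPM in IL-10/Fc and 5.81 and 3.27 CPM in PBS, and Mybl2, for B-MYB, had 2.18, 1.57, 3.67 and 2.19 CPM in IL-10/Fc and 7.03 and 2.84 CPM in PBS. Both overlapped at these low levels, with log2 fold changes of -0.71 (SE 0.47) and -1.04 (SE 0.53). Without PBS replicate 1 both estimates were -0.24, and without PBS replicate 2 they were -1.07 for Foxm1 and -1.55 for Mybl2. Trp53, for p53, had 111, 98.9, 128 and 102 CPM in IL-10/Fc and 147 and 158 CPM in PBS without overlap (log2 fold change -0.46, SE 0.13; edgeR adjusted p = 0.272), and Lin52, a MuvB subunit, averaged 17.1 ± 3.04 CPM in IL-10/Fc (SD, n = 4) and 24.5 ± 1.35 CPM in PBS (SD, n = 2).

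S phase genes, the nearest neighbours of the mitosis set in the cell cycle, ordered the PBS libraries in another way. Over 36 genes the mean log2(CPM + 1) was 4.97, 5.08, 5.53 and 5.20 in IL-10/Fc and 5.37 and 5.64 in PBS, where the mitosis genes had 4.53, 4.73, 5.43 and 5.12 in IL-10/Fc and 5.50 and 5.17 in PBS. PBS replicate 1 was thus the higher PBS library for mitosis and the lower one for S phase, while both sets placed the IL-10/Fc libraries in the same order. The difference of mitosis minus S phase means was -0.44, -0.35, -0.10 and -0.08 in IL-10/Fc and 0.13 and -0.47 in PBS, so the PBS libraries held the extremes. In the S phase list 30 of 36 genes lay below 0, the median being -0.36 on the log2 scale, and its genes with the smallest p, Mcm5 and Mcm7 of the replicative helicase, had log2 fold changes of -0.72 (SE 0.15) and -0.68 (SE 0.21).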

How the data were processed

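RNA of 4 IL-10/Fc and 2 PBS libraries was measured by Smart-Seq2. The deposited files hold, for every library, whole-number gene counts. A deposited series table repeats them beside the authors' comparison: log2 fold changes and their errors, p-values, a test score, and a signal (baseMean), per the file headers. The submitters' processing notes name TopHat2 2.1.1 and Bowtie2 2.2.9, GRCm38 (mm10), DESeq2, Trimmomatic, and Cuffdiff of Cufflinks 2.2.1. Which tool counted the reads is not given in the sources used. Counts were taken from the per-library files, since column numbers of the PBS libraries differ from their titles.

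Genes were kept with filterByExpr (15477 of 15898), scaled by TMM and tested with the quasi-likelihood test of edgeR 4.0.16 in R 4.3.3 (group as the sole term, robust, two-sided, Benjamini-Hochberg adjustment over all genes, threshold 0.05). Levels are TMM-scaled CPM; a standard error is the log2 fold change over the root of F, and intervals are at 95%. Depth was 26738871 to 36941814 counts, at which 3 counts equal 0.0812 to 0.112 CPM, for counting error only. Alternatives were DESeq2 1.42.0 size factors and Wald test, limma-voom (limma 3.58.1), library size scaling, no filter, a block for the replicate number, and leaving out each library (a lone PBS library then takes its variance from the IL-10/Fc group). Exon lengths came from GENCODE M21. The members and all lists were chosen with earlier results of these data known. Values in every library are given for 8 set genes, the 2 members per role with the smallest p and the 3 highest and 3 lowest log2 fold changes at 10 CPM or more, and other genes so shown (Espl1, Spc25) were chosen after their values were seen; of each further list, the 2 genes with the smallest p are named, with Foxm1 and Mybl2.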

Additional observations from a re-analysis of the deposited data

How the results depend on the processing

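The mitosis genes called by adjusted p numbered 0 in all 12 alternative settings, in which the smallest adjusted p of a member was 0.0545 (DESeq2's Wald test), and their median log2 fold change stayed below 0, between -0.14 and -0.75. Of the 48 genes, 28 lay below 0 and 2 (Pttg1 and Top2a) above it in every setting. Over all genes, counts called higher were 0 with library size scaling, 507 with DESeq2's Wald test and 0 to 12 without single libraries, and counts called lower were 234 with DESeq2's Wald test and 0 to 4 without single libraries. That test called Hjurp, Ncaph2, Mcm5, Cenpl and Kntc1 (adjusted p = 0.000478, 0.0134, 0.00314, 0.034 and 0.0497), whose edgeR adjusted p were 0.188 to 0.309. Without single IL-10/Fc libraries, members lower at an unadjusted p under 0.05 ran from 3 without replicate 1 (6.25%, against 4.8% of all genes) to 12 without replicate 3 (25%, against 5.13%). Members higher numbered 0 to 1. Members without overlap between groups, with any single library left out, numbered 11 to 24 lower and 0 to 3 higher. Fewer libraries make overlap less frequent by construction for every gene. The share over all genes was not computed for these subsets, so the overlap counts are not read as a result about the members. With library size scaling, members higher at an unadjusted p under 0.05 were 0. Estimates near 0 changed sign. Library size scaling gave Mki67 -0.06, Bub3 -0.09, Hmmr -0.10, Smc2 -0.13, Birc5 -0.17 and Kif2c -0.17. Limma-voom gave Ube2c -0.01, Birc5 -0.03, Smc2 -0.04, Hmmr -0.06, Cenpf -0.16 and Ncapd2 0.01, and no filter gave Birc5 0.00. Without single libraries, the estimates ran from -0.14 to 0.02 for Smc4, -0.27 to 0.29 for Ncapd2, -0.38 to 0.26 for Cdca8, -0.56 to 0.08 for Bub1, -0.16 to 0.25 for Mki67, -0.27 to 0.33 for Birc5, -0.23 to 0.23 for Smc2 and -0.25 to 0.47 for Ube2c. They ran from -0.30 to 0.57 for Cenpf, -0.36 to 0.27 for Hmmr, -0.58 to 1.01 for Kif2c, -0.43 to 0.05 for Spc24, -1.44 to 0.20 for Cdc25c, -0.49 to 0.24 for Ccnb2, -1.27 to 0.26 for Kif23 and -0.02 to 0.51 for Aurka. The cause of these changes was not tested. With the replicate number as a block, members at an unadjusted p under 0.05 were 13 lower (27.1%, against 3.76% of all genes in the same fit) and 0 higher. In that fit the genes called higher over all genes were 0, and Aurka (-0.05), Anln (-0.28), Mki67 (-0.33), Smc2 (-0.40), Birc5 (-0.49), Hmmr (-0.50), Ube2c (-0.60), Kif2c (-0.80) and Cenpf (-1.14) changed sign. The labels do not state that these numbers mark shared mice or batches. Deviations of same-numbered libraries from their group means correlated at 0.062 and 0.013. The deviations of the 2 PBS libraries are mirror images, so these correlations cannot decide whether the numbers pair the samples. Only 2 numbers are shared, and IL-10/Fc replicates 3 and 4 have no partner. With 2 PBS libraries, the intervals of 15 members were wider than 2 log2 units.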
